A study of Homo sapiens with 26 samples.

Results

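Keratins are the intermediate filament proteins of epithelial cells. A filament is built from heterodimers of 1 acidic type I chain and 1 basic to neutral type II chain, so a cell that makes filaments expresses members of both types, and the combination marks the kind of epithelium. KRT8 and KRT18 form the pair of simple epithelia such as the pancreatic duct, KRT7 and KRT19 are added in ducts, KRT5 and KRT14 form the pair of the basal layer of stratified epithelia, and KRT6A, KRT16 and KRT17 are induced in wounded or rapidly dividing epidermis.

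The keratin genes of 26 single cell-derived cell lines (SCDCLs) of pancreatic ductal adenocarcinoma are described here. Members were the genes of the deposited table whose Ensembl identifier maps to a protein-coding symbol made of KRT, a number and at most 1 letter, which gave 55 of 41078 genes. Of the 55 members, 29 were type I and 26 were type II. The 26 type II genes and KRT18 lie on chromosome 12, and the other 28 type I genes lie on chromosome 17 (GRCh38).

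Each SCDCL was grown from 1 cell by limited dilution and was sequenced once, so each library is 1 clone with no replicate library. The labels name 2 established parental lines, BxPC3 for 12 libraries and Panc1 for 14, and give no other genotype. Gemcitabine stands in every label as the treatment, but the methods describe the drug only for viability assays that were run separately. SMAD4, a transducer of TGF-beta signals that is deleted in BxPC3 and intact in Panc-1, divided the libraries into 12 with 0 to 0.0440 TPM (a transcript level per transcript length, scaled to the same total in every library, that can be compared between genes) and 14 with 28.1 to 52.2 TPM. They are called SMAD4 null and SMAD4 expressing libraries below. The null set held 5 libraries labelled BxPC3 and 7 labelled Panc1, and the expressing set held 7 of each, so that 14 libraries went against their label. The sets were made from a measured gene and not from the labels, so values are given by set as lowest, median and highest with no p-value between sets, and tests were made only between labels. Libraries are numbered as in the labels, 1 to 14 for Panc1 and 15 to 26 for BxPC3.

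The totals were similar in both sets, 27144920 to 34945608 estimated counts in the null libraries and 27035724 to 32601392 in the expressing libraries. Epithelial markers did not all lie in 1 direction. CDH1, the adherens junction cadherin, had 90.8 to 198 TPM and EPCAM, an epithelial adhesion molecule, had 239 to 424 TPM in the null set, whereas the tight junction gene CLDN4 had a median of 74.2 TPM in the null set and 161 TPM in the expressing set. In the expressing set CDH1 had 0.338 to 7.74 TPM and EPCAM 7.49 to 25.5 TPM, while VIM, the intermediate filament protein of mesenchymal cells, had 3047 to 4526 TPM against 1.42 to 73.2 TPM in the null set. FN1, the matrix protein fibronectin and another mesenchymal marker, had the opposite order, with 8.39 to 66.2 TPM in the null set and 0.787 to 3.20 TPM in the expressing set. Fewer cells of a type and less RNA per cell cannot be told apart in these bulk libraries.

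RefSeq promoter sequences (GRCh38.p14) were matched by symbol for 34 of the 55 members. Of the 13 members that reached 10 TPM in some library, the 250 bases before the start are shown for 3 that stand for the patterns described below. KRT5 was high in 1 set and at or near 0 in the other, and KRT10 was at a similar level in every library. KRT4 varied between clones and reached 10 TPM in library 3 alone, at 48.1 TPM. All 3 lie on the minus strand, at chr12:52520395-52520644 for KRT5, chr12:52814117-52814366 for KRT4 and chr17:40822615-40822864 for KRT10. Each sequence is written from 5′ to 3′ on the strand of the gene, and capitals mark a searched motif.
KRT5: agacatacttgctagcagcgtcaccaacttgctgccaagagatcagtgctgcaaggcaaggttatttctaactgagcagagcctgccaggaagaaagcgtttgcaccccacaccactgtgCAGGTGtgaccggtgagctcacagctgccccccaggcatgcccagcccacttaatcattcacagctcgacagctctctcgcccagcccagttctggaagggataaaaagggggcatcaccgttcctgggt
KRT4: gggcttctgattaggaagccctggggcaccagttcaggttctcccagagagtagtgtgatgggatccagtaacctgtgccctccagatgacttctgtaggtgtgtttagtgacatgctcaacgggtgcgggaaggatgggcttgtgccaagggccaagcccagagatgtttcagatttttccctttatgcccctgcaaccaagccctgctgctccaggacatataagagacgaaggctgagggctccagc
KRT10: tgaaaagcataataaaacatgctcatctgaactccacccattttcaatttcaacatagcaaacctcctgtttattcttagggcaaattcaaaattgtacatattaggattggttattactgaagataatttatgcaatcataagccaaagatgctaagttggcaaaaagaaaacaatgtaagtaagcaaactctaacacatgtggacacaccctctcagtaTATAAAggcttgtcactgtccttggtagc
The motifs searched on both strands were TATAAA, the AP-1 motif TGANTCA, the GC box GGGCGG and the E-box CAGGTG. The E-box of KRT5 begins 130 bases before the start and the TATAAA of KRT10 begins 29 bases before it, and none of the 4 motifs was found in the window of KRT4. Among the 34 members with an entry, 20 held TATAAA, which 10.7% of 35116 promoters of the same length held. The E-box was found in 6 members (17.5% of all promoters), the GC box in 4 (42.6% of all promoters) and the AP-1 motif in 0 (6.57% of all promoters). A match is a run of letters and was not tested as a binding site.

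A keratin gene was called on in a set when every library had at least 1 TPM, off when every library had less, and mixed otherwise. In the SMAD4 null set 13 of 55 keratins were on (23.6%), against 30.4% of all genes of the table. In the SMAD4 expressing set 8 were on (14.5%), against 29.1% of all genes. The null set had 36 keratins off, where 58.7% of all genes were off, and 6 mixed, where 11% of all genes were mixed. The expressing set had 43 keratins off, beside 60.1% of all genes, and 4 mixed, beside 10.8% of all genes. By type, 8 type I and 5 type II genes were on in the null set, and 4 of each type were on in the expressing set. The 7 keratins on in both sets were the simple epithelial KRT7, KRT8, KRT18 and KRT19 together with KRT10, KRT15 and KRT80. Another 6 were on in the null set and off in the expressing set, namely KRT5, KRT6A, KRT13, KRT14, KRT17 and KRT222. No keratin was on in the expressing set and off in the null set.

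**Figure D1:**
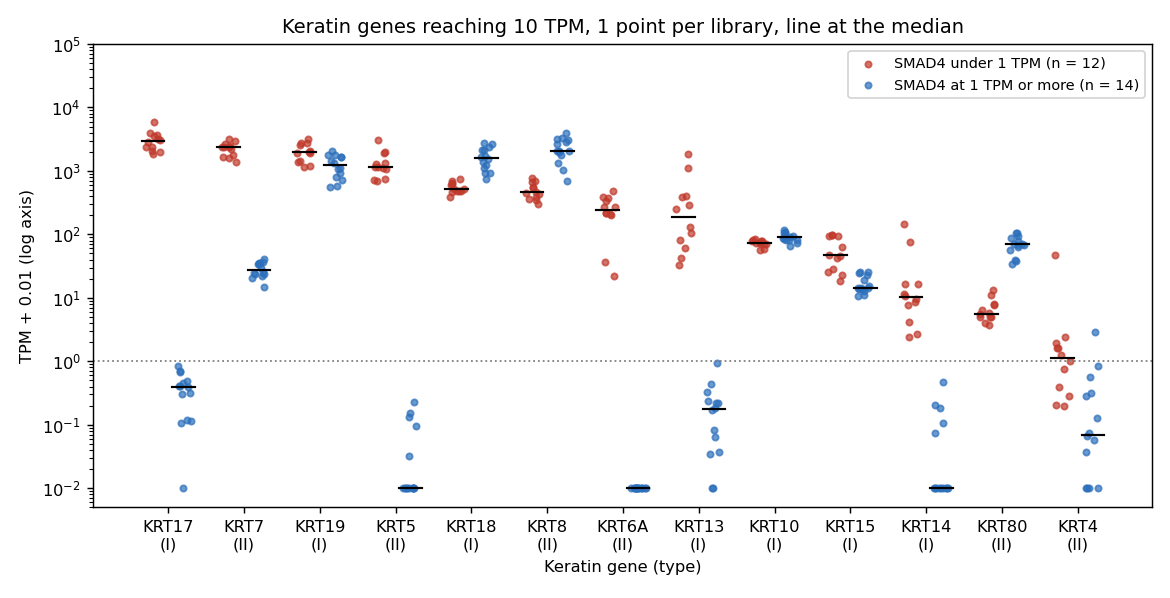
TPM of the 13 keratin genes that reached 10 TPM (horizontal axis, with type), on a log axis of TPM plus 0.01, with 1 point per library, a line at the median and a dotted line at 1 TPM. KRT17, KRT5, KRT6A, KRT13 and KRT14 sit below 1 TPM in all 14 SMAD4 expressing libraries and above it in all 12 null libraries, and KRT80 is the only one of the 13 with every expressing library above every null library.

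The simple epithelial pair was present in every library. KRT8 (type II) had 298, 461 and 781 TPM as its lowest, median and highest value in the null set and 704, 2053 and 4005 TPM in the expressing set. KRT18 (type I) had 393, 521 and 757 TPM in the null set and 733, 1598 and 2732 TPM in the expressing set. The medians were 4.45 times and 3.07 times as high in the expressing set, for KRT8 and KRT18 respectively, and the ranges overlapped for both genes. Single libraries decided the overlap. Library 18, labelled BxPC3, had the lowest KRT8 (704 TPM) and KRT18 (733 TPM) of the expressing set. Without it the lowest values were 1020 and 918 TPM, above every null library. Without library 3 the highest null KRT8 was 694 TPM, and without library 6 the highest null KRT18 was 695 TPM, in each case below every expressing library. The 2 genes lie next to each other and overlap on opposite strands (KRT8 at chr12:52897187-52949954 on the minus strand and KRT18 at chr12:52948871-52952906 on the plus strand). In GENCODE 44 the transcripts of KRT18 share 14.8% of their 31-base words with those of KRT8 when strands are ignored and 0% on the same strand. With all other keratin genes and pseudogenes KRT18 shares 36.7% of its words, 29.4% on the same strand. KRT8 shares 21.3%, 14.6% on the same strand. Part of the counts of both genes thus depended on how reads were divided among copies. The libraries keep the strand, but whether the assignment of reads used it is not given in the sources used here.

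The ductal pair KRT7 and KRT19 was on in both sets, at levels that were alike in 1 set only. KRT19 (type I), the smallest keratin and a marker of ductal cells, had 1154, 1966 and 3176 TPM in the null set and 558, 1220 and 2075 TPM in the expressing set, with overlapping ranges. KRT7 (type II) had 1376, 2377 and 3166 TPM in the null set and 15.05, 27.3 and 41.0 TPM in the expressing set. The lowest null library was 33.6 times the highest expressing library for KRT7, and the medians differed 87.1-fold. The ratio of KRT7 to KRT19 was accordingly 0.889 to 1.53 in the null libraries and 0.00973 to 0.0709 in the expressing libraries.

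KRT17, KRT5, KRT6A, KRT13 and KRT14, all keratins of stratified or wounded epithelium, were on in every null library and off in every expressing library. KRT17 (type I) was the most abundant keratin at the median of the null set, with 1860, 2971 and 5824 TPM, and had 0, 0.387 and 0.831 TPM in the expressing set. KRT5 (type II) had 702, 1158 and 3052 TPM in the null set, whereas 9 of the 14 expressing libraries were at 0 and the highest, library 9, had 0.222 TPM. The lowest null library was 2239 times the highest expressing library for KRT17 and 3166 times for KRT5.

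KRT6A (type II) had 21.96, 244 and 478 TPM in the null set and was at 0 in all 14 expressing libraries. Taking 3 counts as the limit that a count of 0 allows in a library, the lowest null library was at least 354-fold higher. KRT13 (type I), the partner of KRT4 in the suprabasal layers of oral and oesophageal mucosa, had 33.2, 188 and 1841 TPM against 0, 0.168 and 0.929 TPM. KRT4 (type II) itself was mixed in both sets, with 0.184 to 48.1 TPM in the null set and 0 to 2.85 TPM in the expressing set. KRT14 (type I), the partner of KRT5, had 2.37, 10.1 and 148 TPM, against 0 in 9 expressing libraries and at most 0.458 TPM in the others. KRT6A shares 44.1% of its 31-base words with other keratin genes or pseudogenes, KRT14 30.4% and KRT17 17.4%, so part of their counts depended on how reads were divided among copies, whereas KRT5 shares 4.2%, KRT13 1.9% and KRT7 1.7%.

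KRT15, KRT10 and KRT80 were on in every library. KRT15 (type I), a keratin of basal cells, had 18.6, 46.6 and 97.4 TPM in the null set and 10.8, 14.4 and 25.7 TPM in the expressing set, with an overlap between the sets. KRT10 (type I), which replaces KRT14 as epidermal cells differentiate, had 56.0, 73.9 and 85.7 TPM and 64.8, 89.7 and 116 TPM, also with an overlap. Its type II partners KRT1 and KRT2 stayed under 1 TPM in every library. KRT80 (type II) showed the opposite order to KRT17, KRT5, KRT6A, KRT13 and KRT14, with 3.72, 5.59 and 13.4 TPM in the null set and 34.3, 69.6 and 107 TPM in the expressing set. Its lowest expressing library was 2.55 times the highest null library.

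Among the 21 keratins with at least 1 TPM in some library, every null library lay above every expressing library for 9, which is 42.9% of these keratins and compares with 13.2% of 18663 genes passing the same level. The 9 were KRT17, KRT7, KRT5, KRT13, KRT6A, KRT14, KRT222, KRT6B and KRT78, of which KRT6B had uncertain low values, as described below. Every expressing library lay above every null library for 2, KRT80 and KRT81, which is 9.52% of these keratins against 13.3% of the genes. In either direction the ranges did not overlap for 11 keratins (52.4%), beside 26.6% of the genes. These shares are descriptions, since members that are high in 1 set pass the level through that set. The median difference of log2(TPM + 1) between set medians, null minus expressing, was 0.96 over the 21 keratins, 1.47 over the 10 type I genes and 0.30 over the 11 type II genes, against 0.00 over the 18663 genes.

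The 8 keratins of intermediate level had their highest value between 1 and 10 TPM. KRT222 (type I), a keratin-like protein, had 1.89 to 6.68 TPM in the null set and was at 0 in 13 of 14 expressing libraries. KRT16 (type I) was mixed in both sets, with 0.717 to 7.48 TPM and 11 of 12 null libraries at 1 TPM or more, against 0 to 2.23 TPM and 2 of 14 expressing libraries. KRT6B (type II), a near copy of KRT6A, had 0.125 to 4.49 TPM in the null set and at most 0.0221 TPM in the expressing set. It shares 57.8% of its 31-base words with other keratin genes or pseudogenes, so its low values are uncertain. Whether reads of the abundant KRT6A entered the counts of KRT6B was not tested. KRT78 had 0.0706 to 1.18 TPM in the null set and was at 0 in every expressing library, and KRT23 had 0.147 to 1.05 TPM against 0 to 0.256 TPM.

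The hair keratin KRT81 (type II) was the reverse, with 0 to 0.0733 TPM in the null set and 0.549 to 2.99 TPM in the expressing set, where 12 of 14 libraries reached 1 TPM. KRT86, another hair keratin, had 0.471 to 2.75 TPM in the null set and 1.51 to 3.45 TPM in the expressing set. KRT75, a keratin of the hair follicle, had at most 0.0390 TPM in the null set and 0.0217 to 1.06 TPM in the expressing set. KRT81 shares 53.2% of its 31-base words with other keratin genes or pseudogenes, 43.2% with KRT86 alone, and the KRT86 locus overlaps KRT7 on the same strand and KRT81 on the opposite strand, so the low values of KRT81 and KRT86 are uncertain.

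The remaining 34 members stayed under 1 TPM in every library. Of these, 5 (KRT28, KRT31, KRT33A, KRT73 and KRT76) were at 0 throughout. Another 15 never exceeded 3 counts, and the other 14 reached 24.4 counts at most, in KRT83. They included the epidermal KRT1, KRT2 and KRT9, the corneal pair KRT3 and KRT12, the intestinal KRT20 and KRT6C, a near copy of KRT6A. One of the 34 did not overlap between the sets and was singled out after its values were seen. The share of all genes under 1 TPM without overlap was not counted, so this is a description of 1 gene. The hair keratin KRT83 (type II) had 0 to 0.0955 TPM in the null set, with 8 of 12 libraries at 0, and 0.0980 to 0.628 TPM in the expressing set. The sets were barely apart, with at most 3.90 counts in a null library and at least 3.92 counts in an expressing library. It shares 29.2% of its 31-base words with other keratin genes or pseudogenes, 18.97% with KRT81. Whether reads of near copies entered such low counts was not tested.

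**Figure D2:**
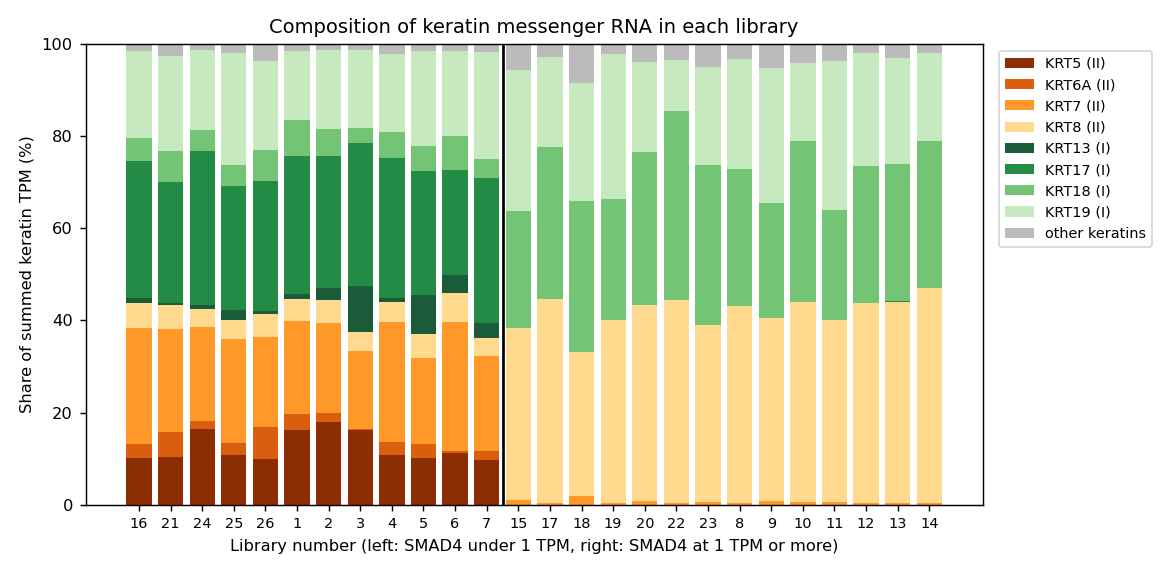
Share of each library's summed keratin TPM (vertical axis, percent) taken by single keratins, with 1 stacked bar per library and the SMAD4 null libraries set apart from the expressing libraries. KRT8, KRT18 and KRT19 together fill 24.4% to 33.0% of the bar in the null set and 89.8% to 97.8% in the expressing set.

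The sum over all keratins was 0.691%, 1.07% and 1.90% of all TPM in the null set and 0.228%, 0.503% and 0.871% in the expressing set. Its composition differed more than its size. KRT8, KRT18 and KRT19 together made up 24.4%, 30.1% and 33.0% of the summed keratin TPM in the null libraries and 89.8%, 95.9% and 97.8% in the expressing libraries. KRT5, KRT7, KRT17 and KRT19 made up 76.5%, 82.6% and 87.5% in the null libraries and 11.6%, 24.0% and 33.0% in the expressing libraries, where nearly the whole of this share was KRT19.

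Summed by type, the null libraries had 3799, 6036 and 11626 TPM of type I and 2910, 4421 and 7082 TPM of type II keratins. The expressing libraries had 1418, 2812 and 4474 TPM of type I and 826, 2149 and 4098 TPM of type II keratins. On TPM the ratio of type II to type I had similar ranges, 0.568, 0.756 and 0.856 in the null set and 0.583, 0.802 and 0.916 in the expressing set. Different members carried it. Left without KRT8 and KRT18, the median ratio was 0.743 in the null set and 0.0775 in the expressing set, where KRT19 remained with little type II. On estimated counts, which weight long transcripts more, the ranges of the ratio did not overlap. They were 0.622, 0.865 and 0.965 in the null set and 0.970, 1.24 and 1.40 in the expressing set. The ratio of KRT8 to KRT18 was 0.617, 0.894 and 1.30 in the null set and 0.959, 1.45 and 1.66 in the expressing set.

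**Figure D3:**
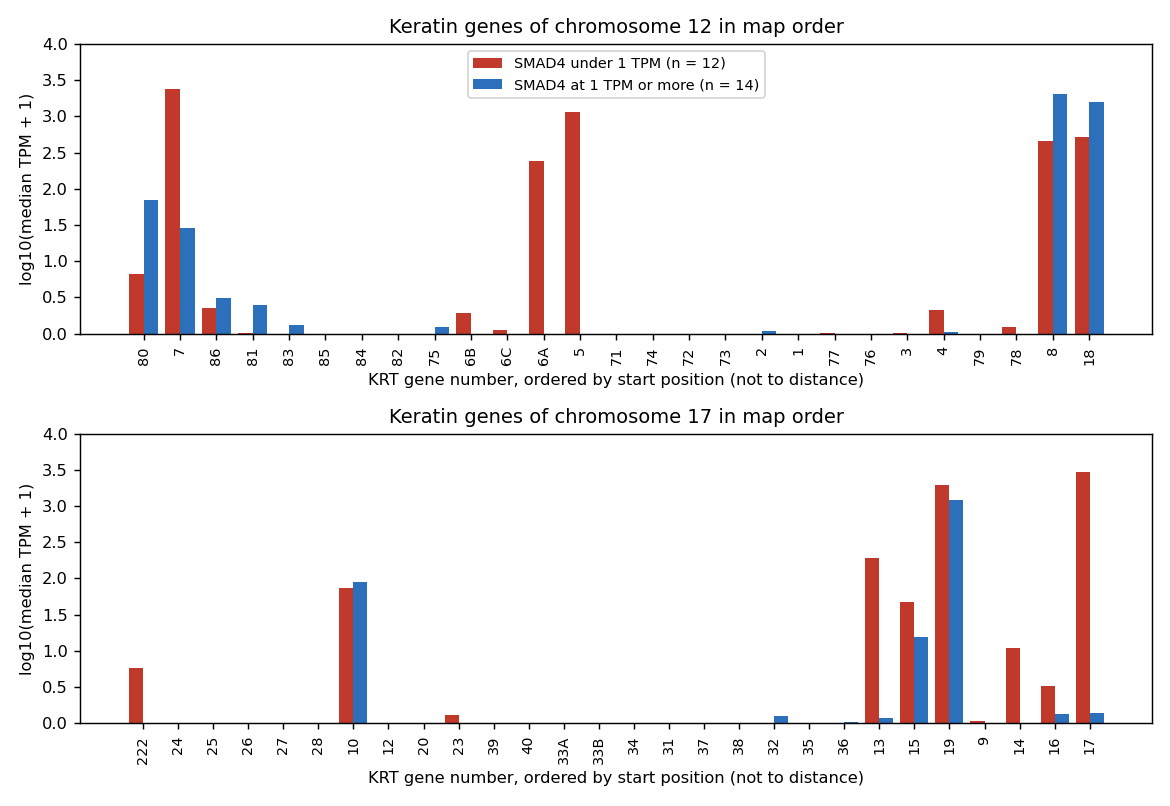
Median TPM of each keratin gene in its order along the type II cluster of chromosome 12 (with KRT18 at its end) and the type I cluster of chromosome 17, as log10(TPM + 1) on the vertical axis, by SMAD4 set. KRT13, KRT15, KRT19, KRT14, KRT16 and KRT17 lie at one end of the chromosome 17 cluster with only KRT9 between them, and on chromosome 12 KRT6A and KRT5 are neighbours, as are KRT8 and KRT18.

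The classes were compared for 14 known partner pairs. In the null set both partners were on for 4 pairs, KRT8 with KRT18, KRT7 with KRT19, KRT5 with KRT14 and KRT5 with KRT15, and both were off for 3, KRT3 with KRT12, KRT71 with KRT25 and KRT85 with KRT35. One partner alone was on in 6 pairs. In KRT6A with KRT16, KRT6B with KRT17 and KRT4 with KRT13 the other partner was mixed and not off. KRT86 with KRT31 had a mixed and an off member. In the expressing set both partners were on for 2 pairs, KRT8 with KRT18 and KRT7 with KRT19, and both were off for 5, now including KRT5 with KRT14 and KRT6B with KRT17. Type I partners without their type II partner included KRT15 (KRT5 off) in the expressing set and KRT10 (KRT1 and KRT2 off) in both sets. KRT5 was 4.74 to 1287 times KRT14 in the null libraries, with a median of 151, so that KRT14 was the minor type I keratin beside KRT17 even where KRT5 was high.

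Across the 14 expressing libraries KRT8 and KRT18 varied together. The Pearson correlation of log2(TPM + 1) was 0.946 and Spearman's rho was 0.934, and each gene ranked 1 among 11966 genes on in the set as the gene most like the other. The correlation was 0.944 without the 2 libraries farthest from the median and 0.937 to 0.960 with each library left out. In the null set the correlation was 0.774 (rho 0.762), with KRT18 at rank 489 of 12469 genes. KRT7 and KRT19 had a correlation of 0.822 (rho 0.748) across the 12 null libraries and of 0.110 (rho −0.0286) across the expressing libraries. Points of a set share the sequencing depth of their libraries, and the part of the overlap of KRT8 with KRT18 in their likeness was not tested.

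The basal pair did not follow this order. KRT5 and KRT14 had a correlation of −0.653 (rho −0.538) across the null libraries, and KRT14 ranked 11972 of 12469 genes for likeness to KRT5, whereas KRT15, another partner of KRT5, had 0.625 (rho 0.580) and rank 1609. KRT4 and KRT13, where KRT4 was mixed, had 0.740 (rho 0.769), and KRT13 was at rank 153 of 12470 genes. KRT6A and KRT16 had 0.563 (rho 0.476), or 0.293 without the 2 libraries farthest from the median.

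**Figure D4:**
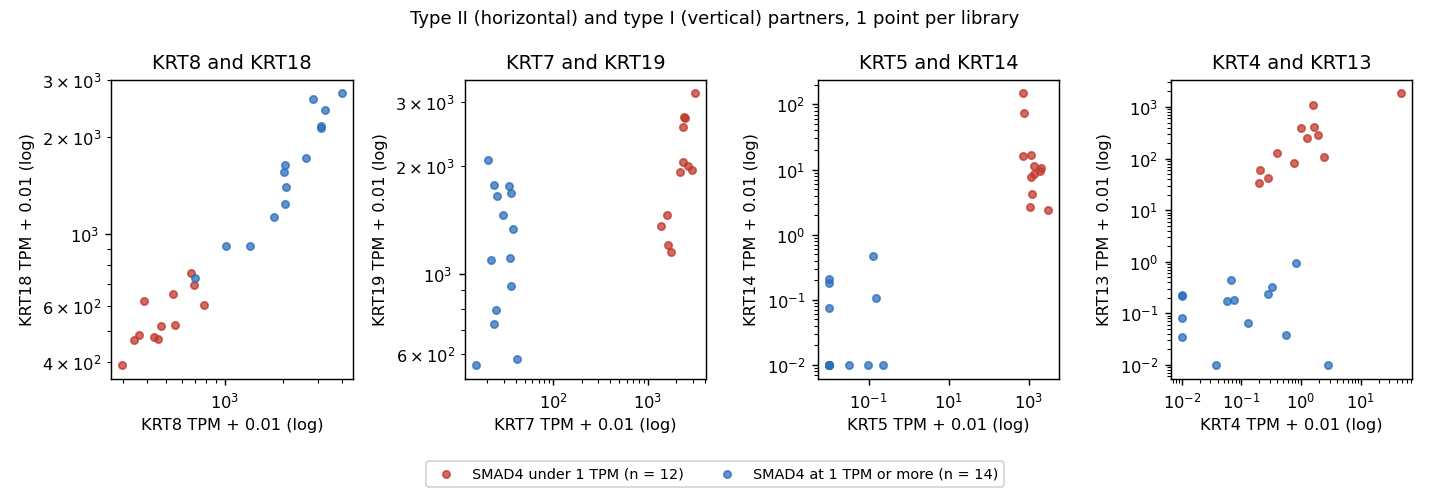
TPM plus 0.01 of 4 type II keratins (horizontal log axes) against a type I partner (vertical log axes), with 1 point per library coloured by SMAD4 set. KRT8 and KRT18 form 1 rising band over both sets, KRT7 divides the sets at similar KRT19, KRT14 runs from 2.37 to 148 TPM at high KRT5, and in the null set library 3 has both the highest KRT4 (48.1 TPM) and the highest KRT13 (1841 TPM).

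A keratin that was on was called varying when its highest library exceeded 4 times its lowest. In the null set 5 of 13 on keratins varied (38.5%), against 9.21% of the genes on in the set. In the expressing set 1 of 8 did (12.5%), against 10.5% of the genes. At a ratio of 2, 11 keratins varied in the null set, beside 50.4% of the genes, and 7 in the expressing set, beside 52.1% of the genes. The median of the highest over the lowest value was 3.53 for the 13 keratins and 2.01 for all genes on in the null set, and 2.92 and 2.04 in the expressing set. The varying keratins of the null set were KRT14 (62.5 times), KRT13 (55.5 times), KRT6A (21.8 times), KRT15 (5.22 times) and KRT5 (4.35 times), and that of the expressing set was KRT8 (5.69 times, or 3.93 times without library 18). Single libraries carried much of this. KRT14 varied 31.5 times without library 26, and without library 3 KRT13 varied 33.7 times, KRT6A 13.02 times and KRT5 2.85 times. KRT10 varied least among the abundant keratins, 1.53 times in the null set and 1.80 times in the expressing set.

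The spread between clones was larger than the error of quantification. The coefficient of variation between null libraries was 165% for KRT14 and 138% for KRT13, where the quantifications that kallisto repeated on resampled reads of a library had a median coefficient of 5.71% and 1.30%. For KRT5 it was 49.9% against 0.36%, for KRT6A 53.4% against 0.95%, and for KRT10 11.9% against 2.14%. In the expressing set it was 40.6% against 0.29% for KRT8 and 39.5% against 0.46% for KRT18. The repeated quantification covers counting and assignment of reads within 1 library, and not culture, extraction or library preparation, which were done once for each clone.

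**Figure D5:**
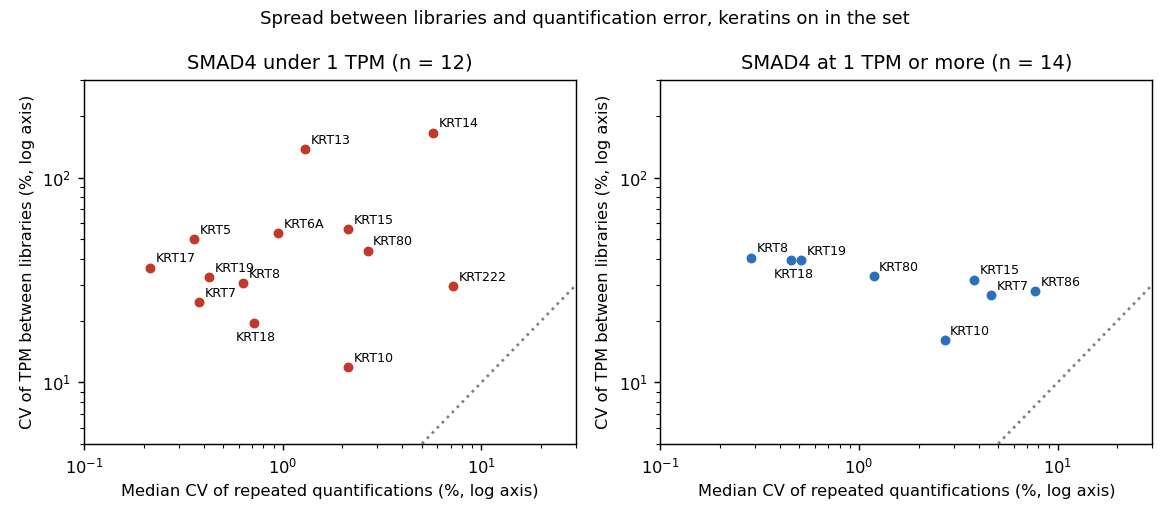
Coefficient of variation of TPM between libraries (vertical log axis, percent) against the median coefficient of variation of a library's repeated quantifications (horizontal log axis, percent) for keratins on in each SMAD4 set, with a dotted line where the 2 are equal. Every keratin lies above the line, and KRT14 and KRT13 in the null set lie highest, at 165% and 138%.

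The variation followed single clones. Library 3, labelled Panc1, had the highest KRT17 (5824 TPM), KRT5 (3052 TPM), KRT7, KRT8, KRT19, KRT13 (1841 TPM) and KRT4 (48.1 TPM) of the null set and the highest keratin total, 18708 TPM, and at the same time the lowest KRT6A (21.96 TPM) and KRT14 (2.37 TPM). Its KRT4 was 20.2 times the next null library, which had 2.38 TPM, and without it KRT5 no longer varied over 4-fold. Libraries 26 and 21, both labelled BxPC3, showed the contrary pattern. They had the highest KRT14 (148 and 74.8 TPM), KRT6A (478 and 391 TPM) and KRT16 (7.48 and 5.84 TPM) and the lowest KRT13 (43.0 and 33.2 TPM) and KRT15 (18.6 and 23.3 TPM) of the set. Library 6 also had little KRT6A (36.7 TPM), with KRT13 at 406 TPM, whereas library 5 had both KRT13 (1117 TPM) and KRT6A (379 TPM) high.

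Other genes of the filament system were described by the same counts. Of 15 other intermediate filament genes 10 reached 1 TPM, and 5 of these lay higher in every expressing library (VIM, PRPH, NES, SYNM and BFSP1, beside 13.3% of all genes) and 0 in every null library. NES, the nestin of progenitor cells, had a median of 15.5 TPM in the null set and 60.3 TPM in the expressing set, whereas the nuclear lamin LMNB1 had 107 and 106 TPM. All 15 genes of keratin linkers, desmosomes and hemidesmosomes reached 1 TPM, and 9 lay higher in every null library, beside 13.2% of all genes. They included DSP, which anchors keratin to desmosomes (148 against 4.93 TPM at the median), ITGB4, the hemidesmosomal integrin (349 against 18.3 TPM), and COL17A1, a hemidesmosomal collagen (179 against 0.16 TPM). TCHP, a keratin-binding protein, was the 1 gene of this list higher in every expressing library (7.96 against 24.8 TPM). The median log2 difference between set medians was 1.65 for this list and −0.68 for the other intermediate filaments.

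Of 18 transcription and splicing regulators linked to epithelial genes, 17 reached 1 TPM, and 10 lay higher in every null library (13.2% of all genes) and 3 in every expressing library (13.3% of all genes). TP63, the regulator of basal epithelial cells, had a median of 91.5 TPM in the null set and 0.0947 TPM in the expressing set. KLF5 had 166 and 0.576 TPM, EHF 135 and 0.0684 TPM, ESRP1, an epithelial splicing regulator, 55.8 and 0.187 TPM, and SNAI2 64.2 and 0.0295 TPM. The 3 in the other direction were ZEB1, a repressor of epithelial genes (1.26 against 21.6 TPM), SNAI1 (0.765 against 6.41 TPM) and GRHL3 (0.598 against 14.2 TPM). The median log2 difference of this list was 2.71.

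Markers of other cell types were examined beside these levels. Of 7 epithelial markers 3 lay higher in every null library (EPCAM, CDH1 and CLDN7), beside 13.2% of all genes, and 0 in every expressing library, beside 13.3%. The other 4 overlapped, and of these CLDN4, KRT8 and KRT18 had the higher median in the expressing set and KRT19 in the null set. By the same counts, of 4 mesenchymal markers 2 lay higher in every expressing library (VIM and ZEB1) and 1, FN1, in every null library. The 4 markers of cornified keratinocytes summed to 1.77 to 18.7 TPM in the null set and 0.0725 to 0.683 TPM in the expressing set, with IVL and SPRR1B higher in every null library, LORICRIN at most 0.0344 TPM and FLG at most 0.683 TPM. The 5 fibroblast markers summed to 9.72 to 28.6 and 2.68 to 39.4 TPM, with LUM at most 0.243 TPM and PDGFRB at most 3.47 TPM. Most of the sum was COL1A1, with 8.92 to 26.5 TPM in the null set and 2.06 to 38.5 TPM in the expressing set. The 4 immune markers summed to 5.71 to 27.9 and 42.5 to 141 TPM, nearly all of it CD68, with PTPRC at most 0.535 TPM and CD3E at most 0.393 TPM. The 3 endothelial markers summed to 3.16 to 16.97 and 0.321 to 5.39 TPM, with CDH5 higher in every null library and VWF at most 0.473 TPM. Keratin pseudogenes, 137 in the table, summed to 8.56 to 16.2 TPM in the null set and 7.63 to 13.5 TPM in the expressing set.

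Because SMAD4 goes against the label in 14 libraries, the labels or library numbers may not give the line of every clone, and the comparisons below are between labels and not between known lines. They were made with edgeR's quasi-likelihood test on all genes, and a gene was called when its adjusted p was below 0.05 and its fold change above 1 on the log2 scale in either direction. Between the 12 libraries labelled BxPC3 and the 14 labelled Panc1, 0 of 17 keratins tested were called, and 0% of 16008 genes were called. At an unadjusted p under 0.05 there were 1 keratin, KRT4, and 367 genes. DESeq2 called 0 keratins and 2 of 41078 genes, and limma called 0 keratins and 0 of 14763 genes. Within the null set, 5 libraries labelled BxPC3 against 7 labelled Panc1, 0 of 17 keratins were called (0% of 16124 genes), and 4 keratins and 1840 genes had an unadjusted p under 0.05. They were KRT13 (log2 fold change Panc1 over BxPC3 of 2.51, adjusted p = 0.405), KRT14 (−2.40, adjusted p = 0.405), KRT4 (3.19, adjusted p = 0.411) and KRT6B (−1.55, adjusted p = 0.428). Within the expressing set, 7 against 7 libraries, 0 of 11 keratins were called (0% of 15161 genes), and 0 keratins and 700 genes had an unadjusted p under 0.05. DESeq2 also called 0 keratins in either set, beside 11 of 41078 genes in the null set and 1 in the expressing set. The interaction test of edgeR, which asks whether a label difference differs between the sets, passed 0 of 17 keratins (0% of 16008 genes). In this test KRT4 (adjusted p = 0.604) and KRT16 (adjusted p = 0.625) were the 2 keratins, among 1273 genes, with an unadjusted p under 0.05. Keratins at or near 0 in the expressing set, such as KRT5 and KRT6A, have no label difference to estimate there. The interaction test therefore cannot decide for them. Within a set and in the interaction test, the p-values measure the spread between clones, each sequenced once. In the comparison over all libraries each label mixed both SMAD4 sets, so its spread also held the difference between the sets.

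When the 14 libraries whose SMAD4 goes against the label were left out, 5 libraries labelled BxPC3 and 7 labelled Panc1 remained, and 16 of 20 keratins were called, 6 higher and 10 lower in Panc1, where 40% of 16418 genes were called, 19.1% higher and 20.9% lower. In these libraries the label and the SMAD4 set are the same division and cannot be told apart.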

How the data were processed

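Messenger RNA of 26 SCDCLs was sequenced as polyadenylated, strand-specific, paired-end libraries. According to the methods and the submitters' processing notes, the authors assigned reads to Ensembl 103 transcripts (GRCh38) with kallisto 0.46.1 and summed them per gene with tximport. The deposited values are TPM, estimated counts that tximport derives from length-scaled TPM, and estimated counts from 30 quantifications of resampled reads per library, of which 5 were used. The 676 other columns were not used. The labels were matched to columns by library number. Of 41078 genes, 36315 were matched to GENCODE 44.

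Classes, ranges and partner correlations used TPM, with a pseudocount of 1 for log2. Estimated counts were rounded for edgeR 4.0.16 (TMM, filterByExpr, quasi-likelihood test, Benjamini-Hochberg adjustment over all genes) and DESeq2 1.42.0, with limma 3.58.1 as a further alternative, in R 4.3.3. Descriptions used Python 3.11.15 with numpy 2.4.6 and pandas 2.3.3. The steps were tested on simulated data. Depth was 27035724 to 34945608 estimated counts per library, and floors of 3 counts cover counting error only. Shared sequence between keratins was measured as 31-base words of GENCODE 44 transcripts.

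All members are accounted for. Those reaching 10 TPM are given by range in both sets, those of 1 to 10 TPM by range, and the others by count, and genes outside the family come from written lists. The members and lists were chosen with earlier results of these data known. Groups came from the labels, and the SMAD4 sets from a threshold of 1 TPM.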

Additional observations from a re-analysis of the deposited data

How the results depend on the processing

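Of the values under alternative settings other than leaving out a library, 60 were labelled the same, 8 moved and 1 reversed. A count was the same when it stayed within a fixed ratio of its main value. A correlation or ratio was the same when it moved by less than its spread. The same label thus covered 36 keratins off in the expressing set in place of 43, with a threshold of 10 estimated counts. It also covered 10 keratins on in the null set in place of 13 at a threshold of 5 TPM. With a minimum of 10 TPM, 6 in place of 9 lay higher in every null library. The cause of these changes was not tested. With no minimum level 3 keratins (KRT80, KRT81 and KRT83) lay higher in every expressing library, and with a minimum of 10 TPM 1 (KRT80) lay higher in every expressing library. The shares of all genes at these other minimum levels were not counted. A ratio of 2 in place of 4 gave 11 varying keratins in the null set and 7 in the expressing set, where 50.4% and 52.1% of all genes varied. On estimated counts the ratio of type II to type I was 0.865 and 1.24, and without KRT8 and KRT18 it was 0.0775 in the expressing set. Without the 2 libraries farthest from the median, the correlation of KRT6A and KRT16 was 0.293 and that of KRT7 and KRT19 in the expressing set was −0.0126. Without the libraries whose SMAD4 goes against the label, 16 of 20 keratins were called between labels, beside 40% of 16418 genes. With the SMAD4 set as a covariate 0 of 17 keratins and 0 of 16008 genes were called. In that fit 2 keratins, among 1204 genes, had an unadjusted p under 0.05. They lay in opposite directions, KRT13 with a log2 fold change of 2.29 (edgeR adjusted p = 0.546) and KRT14 with −2.38 (edgeR adjusted p = 0.546). TMM-scaled counts changed the overlap of 0 keratins.

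Leaving out each library in turn, chosen after seeing the data for all but the label tests, gave 13 to 14 keratins on and 36 to 38 off in the null set, 8 to 8 on and 43 to 44 off in the expressing set, 8 to 9 higher in every null library, 2 to 4 higher in every expressing library, 4 to 6 varying in the null set, 0 to 1 varying in the expressing set, and 0 to 0 called between labels. The 4 and the 0 varying came without library 18, which added KRT8 and KRT18, 3 came without library 1, 3 or 6, and 8 came without library 24. Partners with a median of at least 1 TPM were also added after seeing the data. No paired analysis was possible because the labels number libraries and give the lines no shared replicate.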
